A study of Mus musculus with 9 samples.

Results

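The nucleus and the cytoplasm of wild-type (WT) mouse oocytes were compared across the genes of 1 table of total RNA. Of 23235 genes listed, 12803 reached an FPKM of at least 1 in the WT nucleus or the WT cytoplasm and were kept. FPKM is the number of fragments scaled to the length of the transcript and to the mapped fragments of the library, a relative level within a column. For each gene kept, the difference was log2((nucleus + 1)/(cytoplasm + 1)), so that a positive value means a higher level in the nucleus and a value of 1 a 2-fold higher one, on a scale that understates the differences of genes with low FPKM.

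The oocytes were labelled day 21 and WT, and nuclei were taken out of the cells by micromanipulation. A sample pooled 10 nuclei or 10 cytoplasms. According to the labels there were 3 libraries of WT nuclei and 2 of WT cytoplasms, beside 2 of nuclei and 2 of cytoplasms from oocytes labelled Mtr4-null, which lack the RNA helicase MTR4 of the nuclear exosome pathway. The labels used here give no strain, no Cre driver and no statement of how many animals gave the oocytes. The table holds 1 column for each genotype and compartment, so there are no replicates and the depth is unknown. Every difference below is therefore a description of these columns with no test and an unknown error.

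The nucleus of a growing oocyte makes and processes the transcripts that the egg stores, and most finished mRNAs are then exported to the cytoplasm. RNAs that work in the nucleus stay there: small nucleolar RNAs guide the modification and cleavage of ribosomal RNA in the nucleolus, Cajal body RNAs guide the modification of spliceosomal RNAs, and some long noncoding RNAs remain at or near the chromosome that makes them. Pre-mRNAs that still hold introns are also kept in the nucleus.

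Most genes had like FPKM in both columns, which is a like share of each column and not a like amount of RNA. Of the 12803 genes kept, 10356 (80.9%) were less than 2-fold apart, the nucleus was at least 2-fold higher for 1775 (13.9%), and the cytoplasm for 672 (5.25%). The middle of the distribution lay close to equal FPKM, with a median log2 difference of -0.06. The upper tail was the longer: 484 genes were at least 4-fold and 119 at least 16-fold higher in the nucleus, against 82 and 19 genes in the cytoplasm. The thresholds cut through dense parts of the distribution. The higher column lay between 0.9 and 1 FPKM for 234 genes left out and between 1 and 1.1 FPKM for 208 genes kept, and 339 genes were 1.9- to 2-fold apart while 274 were 2- to 2.1-fold apart. The balance between the directions depended on the scaling: with both columns given the same distribution of values (quantile normalization), 1064 genes were higher in the nucleus and 1125 in the cytoplasm, a share of 48.6% nuclear in place of 72.5%.

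**Figure D1:**
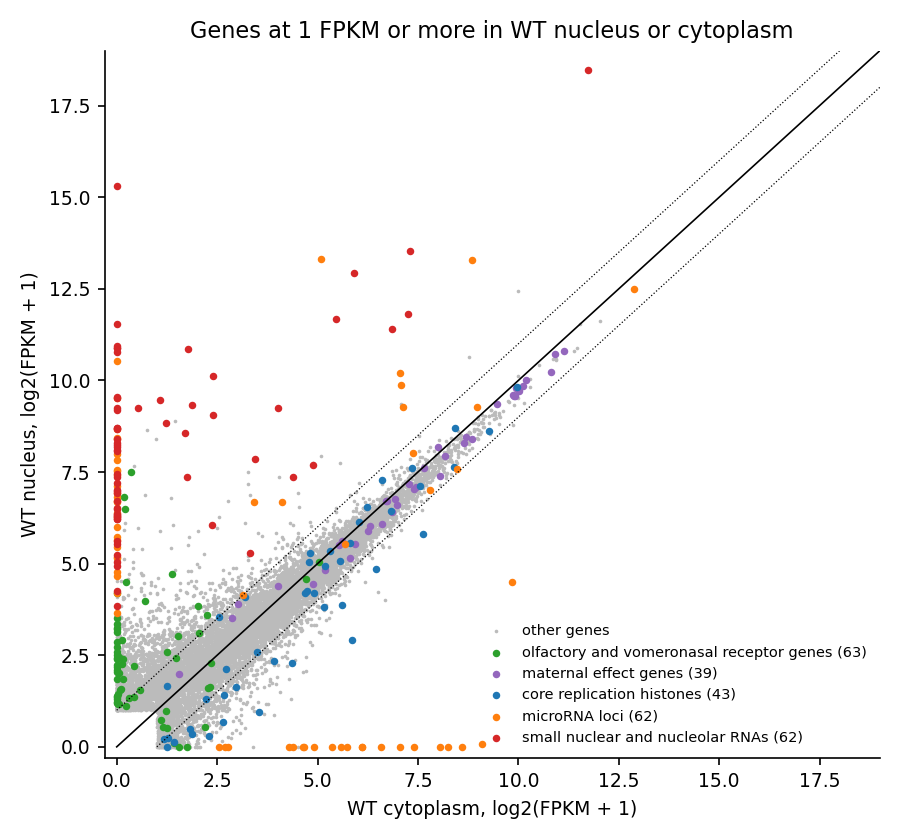
Each point is 1 of the 12803 genes kept, with log2(FPKM + 1) in the WT cytoplasm on the x axis and in the WT nucleus on the y axis; the solid line marks equal levels and the dotted lines 2-fold differences. All 62 small nuclear and nucleolar RNAs lie above the upper dotted line, 40 of them at 0 on the x axis, while the 39 maternal effect genes lie between the dotted lines.

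The nuclear small RNAs stood farthest from the diagonal. Small nucleolar RNAs (snoRNAs) fall into the C/D class, which directs 2'-O-methylation, and the H/ACA class, which directs pseudouridylation. The table lists 72 C/D genes, of which 16 were kept and 16 were higher in the nucleus, and 36 H/ACA genes, of which 30 were kept and 30 were higher in the nucleus. Of these 46 snoRNAs, 36 were below 1 FPKM in the cytoplasm. They passed the filter through the nucleus alone, so the filter set their direction. Sequences of the most abundant members are shown because their defining boxes tell the class apart from the introns around them; they come from GENCODE M21 transcripts on build GRCm38, whereas the submitters' notes name mm9. In the 3 C/D snoRNAs with the highest nuclear FPKM, capitals mark the C box TGATGA within the first 20 bases and the D box CTGA within the last 15 bases.
Snord49a, chr11:62603450-62603521, plus strand: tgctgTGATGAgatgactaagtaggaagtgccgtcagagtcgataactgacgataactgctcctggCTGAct
Snord110, chr2:130275506-130275573, plus strand: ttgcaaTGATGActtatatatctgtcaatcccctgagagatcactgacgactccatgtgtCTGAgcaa
Snord104, chr11:106500993-106501062, plus strand: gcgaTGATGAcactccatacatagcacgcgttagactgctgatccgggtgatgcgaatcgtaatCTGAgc
In the 2 most abundant H/ACA snoRNAs, capitals mark the ACA within the last 8 bases.
Snora47, chr13:95330600-95330737, plus strand: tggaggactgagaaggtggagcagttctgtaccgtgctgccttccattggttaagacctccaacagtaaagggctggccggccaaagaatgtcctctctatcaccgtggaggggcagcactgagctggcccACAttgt
Snora61, chr4:132310240-132310369, plus strand: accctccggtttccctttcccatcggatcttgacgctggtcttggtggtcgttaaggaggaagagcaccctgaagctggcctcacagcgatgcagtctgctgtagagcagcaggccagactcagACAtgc
On the RNA strand, both boxes were found in 13 of the 16 C/D genes kept (81.2%), in 30 of 54 C/D genes below the filter that have a GENCODE transcript, and in 0.256% of the 141515 GENCODE transcripts of at least 60 bases. The ACA end was found in 29 of the 30 H/ACA genes kept (96.7%) and in 11.5% of all those transcripts.

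The C/D snoRNAs had a summed FPKM of 12346 in the nucleus and 7.34 in the cytoplasm. Snord49a stood at 1959 FPKM in the nucleus and was listed at 0 in the cytoplasm. Snord110 stood at 1888 FPKM and Snord104 at 1876 FPKM in the nucleus, and both were listed at 0 in the cytoplasm. Of the 16 C/D genes kept, 13 were listed at 0 in the cytoplasm, and the 3 that were above 0 in both columns had a median log2 difference of 7.46. Snord22, hosted by the noncoding gene Snhg1, was one of these, with 645 FPKM in the nucleus and 2.67 FPKM in the cytoplasm. The median over all 16, zeros included, was 8.49 (8.17 to 8.60 over the 4 scalings tried), against -0.06 over all genes kept. The 56 C/D genes below the filter included shorter transcripts: the median length was 86 nt for those kept and 77 nt for 54 of those below the filter. All of these are shorter than the selected cDNA of 300 to 400 bp, so their FPKM is read as a level only within the list.

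The H/ACA snoRNAs summed to 12950 FPKM in the nucleus and 233 FPKM in the cytoplasm. Snora61 stood at 2995 FPKM in the nucleus and was listed at 0 in the cytoplasm. Snora47 was the most abundant of the list in both columns, with 3606 FPKM in the nucleus and 153 FPKM in the cytoplasm. The smallest difference of the list belonged to Snora7a, with 38.01 FPKM in the nucleus and 8.93 FPKM in the cytoplasm, a log2 difference of 1.97. Every H/ACA gene kept was thus at least 2-fold higher in the nucleus, by the rule that called 13.9% of all genes. Of the 30, 21 were listed at 0 in the cytoplasm and passed through the nucleus alone, so this share is largely set by the filter. Over the 9 members above 0 in both columns the median log2 difference was 4.55.

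Many snoRNAs are cut from introns, so the RNA of a snoRNA and that of its host gene can part after splicing. In the GRCm38 annotation, 39 of the 46 snoRNAs kept lay inside a same-strand gene that was itself kept. Of these, 9 of 15 C/D and 8 of 24 H/ACA genes lay in an intron of the host; the others overlapped an annotated exon, where reads of the snoRNA and of the host cannot be told apart. For 30 of them the host was protein-coding. The 28 protein-coding hosts had a median log2 difference of -0.18 and none was at least 2-fold higher in the nucleus. The 3 examples with a coding host given here are all intronic. Snord110 lies in an intron of Nop56, a core protein of C/D particles, which had 45.7 FPKM in the nucleus and 50.4 FPKM in the cytoplasm. Snora47 lies in an intron of Zbed3, a subcortical maternal complex gene, whose mRNA was among the most abundant of the cytoplasm with 3156 FPKM in the nucleus and 4228 FPKM in the cytoplasm. Snora62 lies in an intron of the ribosomal protein gene Rpsa: the snoRNA stood at 32.3 FPKM in the nucleus and was listed at 0 in the cytoplasm, and Rpsa had 31.1 and 67.3 FPKM.

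Noncoding hosts lay higher in the nucleus than coding ones. The 9 hosts of snoRNAs kept that GENCODE types as noncoding had a median log2 difference of 0.99. Of these, 4 were at least 2-fold nuclear, as were 13.9% of all genes kept. The 9 include Cct6a, host of Snora15, which is typed there as a processed transcript although its symbol is that of a chaperonin gene. Cct6a had the lowest difference of the 9, with 3.15 FPKM in the nucleus and 4.31 FPKM in the cytoplasm. Snora61 overlaps an annotated exon of Snhg12, which had 3.78 FPKM in the nucleus and 0.130 FPKM in the cytoplasm. Snord49a lies in an intron of 2410006H16Rik, with 26.8 FPKM in the nucleus and 12.97 FPKM in the cytoplasm. On a list of 12 noncoding snoRNA host genes by name, 10 were kept, 7 were higher in the nucleus and none in the cytoplasm, with a median of 1.38 (0.93 to 1.5 over the scalings). Snhg5 stood at 21.03 FPKM in the nucleus and 1.98 FPKM in the cytoplasm, and Snhg11 at 7.28 and 0.0487 FPKM. Snhg6 had close values, 6.86 and 8.77 FPKM. On the list of 33 protein-coding snoRNA hosts, 2 were higher in the cytoplasm and 0 in the nucleus, and 28 of 33 lay below 0. The lists differ in level: median FPKM in nucleus and cytoplasm was 3.38 and 1.07 for the noncoding list, and 51.3 and 62.3 for the coding list. Among all protein-coding genes at a mean of 2 to 5 FPKM, 20.9% were higher in the nucleus. The part of level and of the filter in the gap was not tested.

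The other nuclear small RNAs followed the same direction. Cajal body RNAs held 47.8% of the summed FPKM of the nucleus and 0.834% of that of the cytoplasm, most of it Scarna2. Scarna2 stood at 361725 FPKM in the nucleus and 3428 FPKM in the cytoplasm, the highest value of the nucleus and the third highest of the cytoplasm. Scarna17 had 40468.5 FPKM in the nucleus and was listed at 0 in the cytoplasm. All 8 Cajal body RNAs kept were higher in the nucleus, with log2 differences from 4.94 to 15.30. Of them, 4 were listed at 0 in the cytoplasm and passed the filter through the nucleus alone. Among the catalytic RNAs, Rpph1, the RNA of RNase P, which trims tRNA precursors, stood at 11847 FPKM in the nucleus and 156 FPKM in the cytoplasm. Rmrp, the RNA of RNase MRP, which cleaves the ribosomal RNA precursor, had 2733 and 115 FPKM. Terc, the template RNA of telomerase, had 455 and 1.32 FPKM. The 3 RNase P RNA-like genes Rprl1, Rprl2 and Rprl3 also lay on the nuclear side, but their reads may be shared with Rpph1 and among themselves. Rnu11 and Rnu12, the RNAs of the minor spliceosome, stood at 79.6 and 232 FPKM in the nucleus and at 0 and 9.87 FPKM in the cytoplasm. Vaultrc5, the RNA of a cytoplasmic particle called the vault, had 7.63 FPKM in the nucleus and 11.05 FPKM in the cytoplasm, and was the only kept gene of the short list of cytoplasmic small RNAs. Rn45s, the precursor of ribosomal RNA, remained after rRNA depletion at 5559 FPKM in the nucleus and 1016 FPKM in the cytoplasm.

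**Figure D2:**
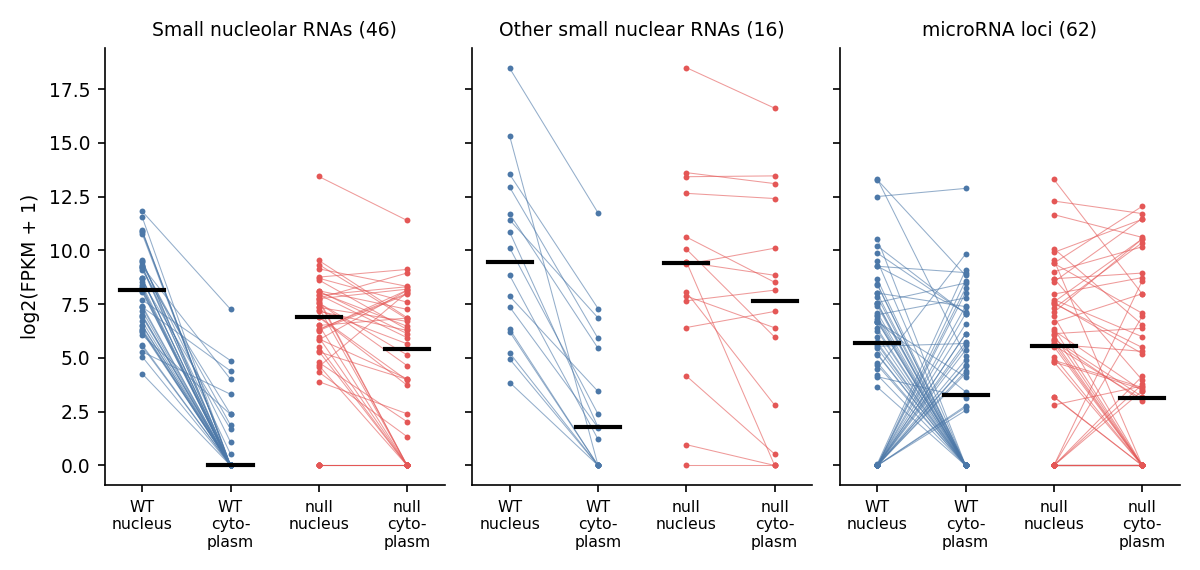
Lines join the nucleus and cytoplasm value, as log2(FPKM + 1), of each kept small RNA gene in WT (blue) and in Mtr4-null oocytes (red, "null"); black bars are medians, for 46 small nucleolar RNAs, 16 other small nuclear RNAs and 62 microRNA loci. In WT every line of the left and middle panels goes down from the nucleus, and lines of the right panel cross.

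Loci of microRNAs went in both directions. MicroRNAs are short silencing RNAs cut from hairpins, first in the nucleus and then in the cytoplasm. Libraries of selected cDNA of 300 to 400 bp do not hold mature microRNAs as such, so an FPKM at these loci counts longer RNA that crosses them. Of 615 loci listed, 62 were kept: 34 were higher in the nucleus, 21 in the cytoplasm and 7 were in between. Of the 62, 17 were listed at 0 in the nucleus and 26 at 0 in the cytoplasm, and over the 19 loci above 0 in both columns the median log2 difference was 0.63. The farthest on the cytoplasmic side was Mir1893, with 0.0525 FPKM in the nucleus and 543 FPKM in the cytoplasm. Mature sequences are shown for the loci described next, which are high in one column or in both; they are from RefSeq on GRCm38.p6, which held a mature sequence for 53 of the 62 loci, and capitals mark the seed, bases 2 to 8.
mmu-miR-804, chr11:50357799-50357820, minus strand: uGUGAGUUguuccucaccugga
mmu-miR-762, chr7:127708534-127708555, plus strand: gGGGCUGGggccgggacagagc
mmu-miR-678, chr10:76207333-76207354, minus strand: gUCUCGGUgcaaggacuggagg
mmu-miR-5116, chrX:56587892-56587912, minus strand: uUUGAUAGgaaccccgccuga
mmu-miR-22-3p, chr11:75463772-75463793, plus strand: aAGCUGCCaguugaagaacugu
The 72 mature sequences of these loci carried 71 different seeds, the shared one belonging to both Mir680 copies.

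Mir804 stood at 1489 FPKM in the nucleus and was listed at 0 in the cytoplasm. Mir762 was high in both columns, with 5812 FPKM in the nucleus and 7560 FPKM in the cytoplasm, the highest value of the cytoplasm. Mir5116 was listed at 0 in the nucleus and stood at 386 FPKM in the cytoplasm, and Mir678 was at 304 FPKM in the cytoplasm with a nuclear estimate of effectively 0. These cytoplasmic loci lie in exons of mRNAs, Mir5116 in Mmgt1 and Mir678 in Prmt2, whose own levels were near equal (Mmgt1 6.98 FPKM nuclear against 8.38 FPKM cytoplasmic, and Prmt2 32.3 against 30.9 FPKM). Mir22 stood at 21.6 FPKM in the nucleus and 911 FPKM in the cytoplasm, and overlaps an exon both of its host RNA and of Tlcd2, one of the most abundant mRNAs of the table with 2991 and 2992 FPKM. Of the loci with a position, 11 of 21 that were higher in the cytoplasm and 10 of 33 that were higher in the nucleus overlapped a same-strand exon; reads of the host and of the microRNA transcript cannot be told apart there.

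Long noncoding RNAs were higher in the nucleus more often than mRNAs. Of 528 kept genes that GENCODE calls long noncoding, 242 (45.8%) were at least 2-fold nuclear and 45 (8.52%) at least 2-fold cytoplasmic, with a median log2 difference of 0.85. Of 11851 protein-coding genes the shares were 11.2% and 5.01%, with a median of -0.08. The gap was also present within levels: at a mean FPKM of 10 to 20, 16 of 43 long noncoding genes and 86 of 1979 protein-coding genes were higher in the nucleus. On a list of nuclear long noncoding RNAs, 12 of 17 were kept, 8 were higher in the nucleus and none in the cytoplasm, with a median of 1.38 (0.94 to 1.5 over the scalings). Malat1, an RNA of nuclear speckles, was the most abundant, with 181 FPKM in the nucleus and 8.63 FPKM in the cytoplasm. Neat1, the scaffold of paraspeckles, was low, with 3.82 and 0.932 FPKM. Xist, which coats an inactive X chromosome in somatic cells, had 1.52 and 0.296 FPKM. Tug1 lay on the other side, with 11.5 FPKM in the nucleus and 17.3 FPKM in the cytoplasm.

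Imprinted loci showed the same split by RNA type, in part through the same genes. All 5 imprinted noncoding RNAs kept were higher in the nucleus, with a median log2 difference of 1.58, and 3 of the 27 imprinted coding genes were higher in the cytoplasm against 4 in the nucleus. Kcnq1ot1, the antisense RNA that silences its neighbours on the paternal chromosome, stood at 16.05 FPKM in the nucleus and 0.110 FPKM in the cytoplasm. The mRNA gene it overlaps, Kcnq1, stood at 7.56 FPKM in the nucleus and 16.1 FPKM in the cytoplasm. Meg3 had 7.69 and 1.899 FPKM, Rian 5.77 and 1.30 FPKM, and Airn, the antisense RNA of Igf2r, 6.31 and 1.20 FPKM, while Igf2r itself had 27.8 and 24.5 FPKM. Peg3, a zinc finger gene, was the farthest of the 4 coding members on the nuclear side, with 52.4 FPKM in the nucleus and 2.47 FPKM in the cytoplasm; its antisense RNA Peg3as had 42.1 and 1.54 FPKM. The sources used here do not state that counting used strand, so reads of such overlapping pairs cannot be told apart.

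**Figure D3:**
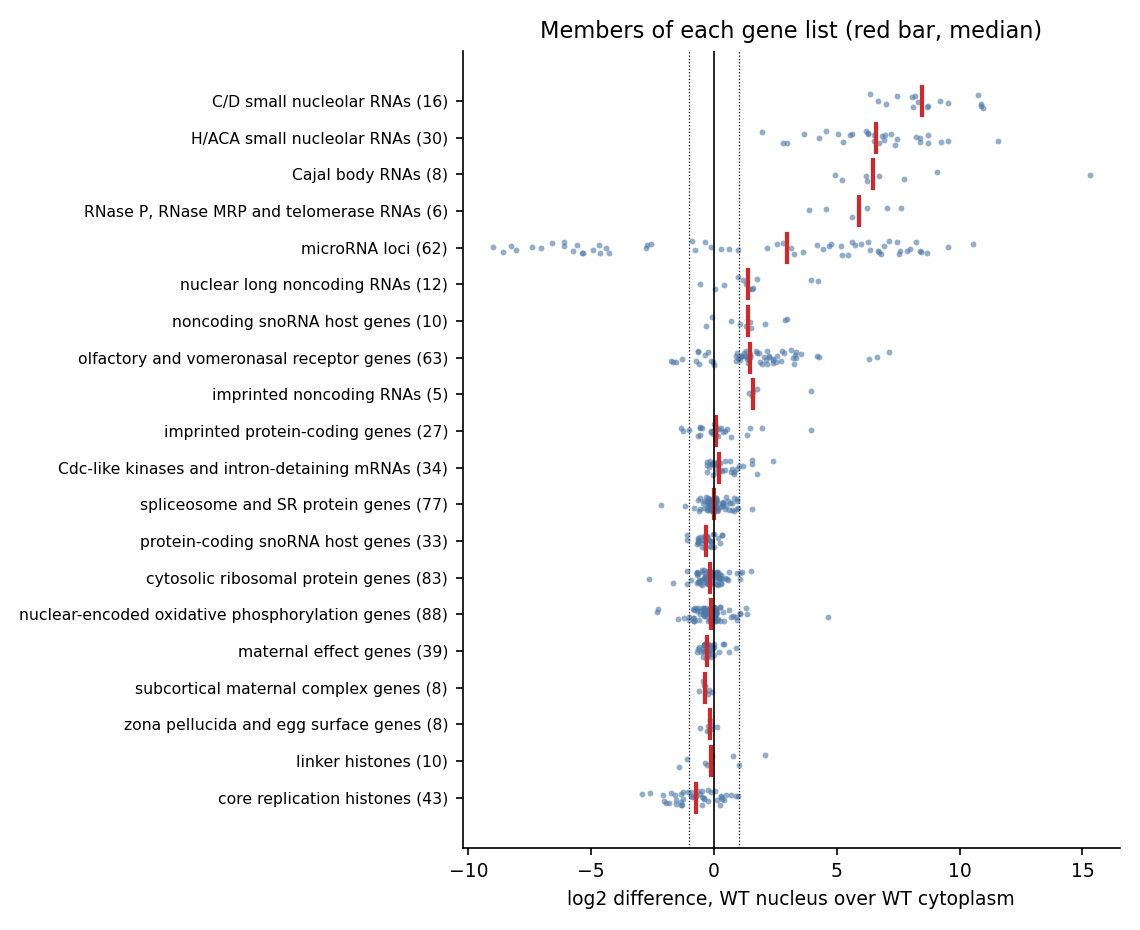
Each point is a kept member of 1 gene list, the x axis its log2 difference of WT nucleus over WT cytoplasm, the red bar the list's median and the dotted lines 2-fold differences; the number of members kept is in parentheses. Small nuclear RNA lists have medians of 5.92 to 8.49, noncoding and receptor gene lists of 1.38 to 1.58, and most mRNA lists of -0.36 to 0.20.

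Among genes outside the small RNA, predicted, RIKEN clone and pseudogene classes, the 12 with the largest nuclear difference at 5 FPKM or more were mostly genes of other tissues. Zfp488, a zinc finger repressor of the nervous system, led with 200 FPKM in the nucleus and 0.356 FPKM in the cytoplasm. Vmn1r58, a vomeronasal receptor, had 112 and 0.134 FPKM, and Olfr613, an olfactory receptor, had 89.5 and 0.149 FPKM. The others included 4932411L15, Grk4, Npff, Cpne8, Cox7a1, Tmem45b and the bitter taste receptors Tas2r137 and Tas2r108, with nuclear values from 22.1 FPKM for Tmem45b to 115 FPKM for 4932411L15. Npff, a neuropeptide precursor gene, was listed at 0 in the cytoplasm against 25.9 FPKM in the nucleus. Cox7a1, the muscle isoform of a cytochrome oxidase subunit, had 32.2 and 0.320 FPKM. All 12 had a cytoplasmic value below 2 FPKM.

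Few chemosensory receptor genes reached the filter. Of 1463 olfactory, vomeronasal and trace amine receptor genes in the table, 1158 were listed at 0 in both columns and 63 passed, most through their nuclear value, so that the direction of those that passed is largely set by the filter. As a description, 46 of them were 2-fold or more nuclear, 4 cytoplasmic, and 22 were listed at 0 in the cytoplasm; the nuclear share was 28.7% among protein-coding genes with a mean under 2 FPKM. Over all 1463 genes, passed or not, the summed FPKM was 761 in the nucleus and 119 in the cytoplasm. Olfr976 was an exception at a similar level, with 32.0 and 31.7 FPKM. Receptor genes are near copies of one another, so the assignment of reads among them is uncertain. Zinc finger genes of the Zfp series, another large family, had shares near those of all genes kept: 33 of 282 (11.7%) were higher in the nucleus and 13 (4.61%) in the cytoplasm, beside 13.9% and 5.25% over all genes, with a median of -0.01.

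Genes with only a working name were low and were often on the nuclear side. Of 1023 RIKEN clone genes 287 (28.1%) were nuclear and 80 cytoplasmic by the 2-fold rule, and of 511 predicted models 156 (30.5%) and 39. The nuclear share was 10.97% among the 11108 genes outside the small RNA, predicted, RIKEN clone and pseudogene classes. Levels differed too: the median nuclear FPKM was 4.91 for RIKEN clone genes, 4.30 for predicted models and 10.3 for those other genes, and among protein-coding genes the nuclear share was 20.9% at a mean of 2 to 5 FPKM and 28.7% below that. The part of level in the gap was not tested. A130077B15Rik had 397 FPKM in the nucleus and 0.681 FPKM in the cytoplasm, 4930470H14Rik 478 and 1.72 FPKM, and A630089N07Rik 336 and 0.966 FPKM. Of 36 pseudogene symbols 17 were higher in the nucleus and 2 in the cytoplasm. Olfr856-ps1 led these with 179 and 0.277 FPKM. On the cytoplasmic side Rpl34-ps1 had 17.9 FPKM in the nucleus and 90.4 FPKM in the cytoplasm, while its parent gene Rpl34 had 145 and 64.4 FPKM; reads of such pairs can be assigned to either copy.

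Some mRNAs of the splicing machinery are known to keep introns and wait in the nucleus. On a list of 34 Cdc-like kinase and intron-detaining genes kept, 6 (17.6%) were higher in the nucleus, near the 13.9% of all genes, and none in the cytoplasm; the median log2 difference was 0.20 (0.25 to 0.34 over the scalings). Ogt, the enzyme that adds O-GlcNAc to proteins and a textbook case of a detained intron, had 120 FPKM in the nucleus and 21.7 FPKM in the cytoplasm. Nktr, a cyclophilin with an arginine and serine rich tail, had 20.96 and 5.44 FPKM. The splicing factor genes Srsf6 and Rbm5 had 19.7 and 6.14 FPKM and 14.8 and 4.37 FPKM. The Clk kinases themselves did not stand apart: Clk1 had 50.03 FPKM in the nucleus and 60.3 FPKM in the cytoplasm, and Clk2 31.2 and 31.7 FPKM. Of 77 spliceosome and SR protein genes, which share members such as Srsf6 with that list, 1 was higher in the nucleus and 2 in the cytoplasm, with a median of 0.00. The columns do not separate introns from exons, so detained introns themselves were not measured.

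Messengers of the growing oocyte had near equal FPKM in both columns, leaning to the cytoplasm. Of 39 maternal effect genes kept, 0 were 2-fold apart in either direction, 33 lay below 0 and the median log2 difference was -0.26 (-0.27 to -0.12 over the scalings). Their median nuclear level was 136 FPKM. Protein-coding genes at a mean of 100 FPKM or more had a like median of -0.25, with 1.16% nuclear and 0.434% cytoplasmic by the 2-fold rule. A lean like that of the maternal effect genes was thus common to abundant mRNAs. Gdf9, the growth factor that oocytes send to granulosa cells, had 1800.2 FPKM in the nucleus and 2677 FPKM in the cytoplasm. Padi6, a component of the cytoplasmic lattices, had 1203 and 1812 FPKM, and Nlrp14 902 and 1242 FPKM. All 8 subcortical maternal complex genes lay below 0, with a median of -0.36 and 0 of them 2-fold apart. The 8 zona pellucida and egg surface genes had a median of -0.17 (-0.40 to -0.04 over the scalings): Zp1 had 461 and 554 FPKM, Zp2 1116 and 1015 FPKM, and Zp3 1369 and 1470.5 FPKM. Oocyte linker histone H1foo had 1531 and 1953 FPKM. High values of such mRNAs in the nuclear column were thus the rule. No measure of the purity of the fractions was used here. Cytoplasmic mRNA taken along with the nuclei therefore cannot be told apart from mRNA inside them. FPKM is relative to each column's total, so these ratios are not shares of an oocyte's molecules, and in pooled samples fewer cells of a type cannot be told apart from less RNA per cell.

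Stored-message factors behaved alike. Of 37 genes for proteins of maternal mRNA storage, 1 was higher in the nucleus and 1 in the cytoplasm, with a median of -0.26. Btg4, the adaptor that brings the deadenylase to maternal mRNAs at maturation, had 833 FPKM in the nucleus and 1030.3 FPKM in the cytoplasm. Of 46 genes of meiotic arrest and maturation, 0 were higher in the nucleus and 1 in the cytoplasm; Mos, the kinase of meiotic arrest, had 246 and 296 FPKM. Prkaca, the catalytic subunit of protein kinase A, was the one past 2-fold, with 9.74 and 22.1 FPKM.

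Many replication-dependent core histone genes were higher in the cytoplasm, though not of every histone type. Their mRNAs end in a stem loop in place of a poly(A) tail. Of 61 genes listed, 43 were kept, 0 were higher in the nucleus and 17 (39.5%) were at least 2-fold higher in the cytoplasm, where 5.25% of all genes were; the median log2 difference was -0.71 (-0.80 to -0.57 over the scalings). H2B genes went farthest, 7 of 12 being higher in the cytoplasm with a median of -1.15, then H2A with 4 of 11 and a median of -0.93, and H4 with 4 of 12 and a median of -0.54. H3 genes went both ways, with 2 of 8 higher in the cytoplasm, 5 of 8 above 0 and a median of 0.15. The summed FPKM of the listed H2A genes was 531 in the nucleus and 513 in the cytoplasm. Hist1h2bj stood at 6.61 FPKM in the nucleus and 56.6 FPKM in the cytoplasm. Hist1h3f had 54.8 and 197 FPKM, and Hist1h4h 28.1 and 87.2 FPKM. The most abundant members were closer to equal: Hist2h2bb had 910 and 998 FPKM, Hist1h4c 392 and 620 FPKM, and Hist1h2aa, a testis and oocyte H2A, 418 and 343 FPKM. Core histone genes are short near copies, so the division of reads among them is uncertain, and the list as a whole summed to 3101 FPKM in the nucleus and 3840 FPKM in the cytoplasm. Replacement histones, whose mRNAs have poly(A) tails, did not lean this way: 1 of 10 was higher in the nucleus, H2afy with 19.2 and 6.89 FPKM, and none in the cytoplasm. Slbp, which binds the histone stem loop, had 508 FPKM in both columns.

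The 12 other genes farthest on the cytoplasmic side had modest levels. Bfsp1, a filament protein of the lens, was listed at 0 in the nucleus and stood at 21.9 FPKM in the cytoplasm. Rnaset2a, a lysosomal ribonuclease, had 0.000853 FPKM in the nucleus and 9.52 FPKM in the cytoplasm, and Arl8a, a GTPase of lysosomes, had 0.835 and 14.2 FPKM. Lzts1 had 1.46 and 19.1 FPKM, and Bcat2, the mitochondrial branched-chain aminotransferase, 3.23 and 25.3 FPKM. Hist1h2bj, Kcnip2, Ada, Manba, Rpl26, Rsc1a1 and Lypd3 completed the set. None of the 12 reached 60 FPKM in the cytoplasm, and none came from the abundant oocyte transcripts. Rpl26, a ribosomal protein gene, was estimated at 0.00107 FPKM in the nucleus and 5.30 FPKM in the cytoplasm, far below most genes of its family, whose pseudogene copies are many.

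Few genes of the housekeeping lists were 2-fold apart, and the list medians given here lay below the -0.06 of all genes. Of 83 cytosolic ribosomal protein genes 4 were higher in the nucleus and 4 in the cytoplasm, with a median log2 difference of -0.17. Rpl41 had 791 FPKM in the nucleus and 1002 FPKM in the cytoplasm, and Rps2 258 and 291 FPKM. Of 76 mitochondrial ribosomal protein genes 2 were higher in the nucleus and 6 in the cytoplasm, with a median of -0.07, and of 88 nuclear-encoded oxidative phosphorylation genes 5 and 6, with a median of -0.12. Ndufb7, a subunit of complex I, had 7.31 FPKM in the nucleus and 38.98 FPKM in the cytoplasm. Translation factor genes leaned to the cytoplasm, 55 of 68 lying below 0 with a median of -0.26 (-0.20 to -0.11 over the other scalings), and proteasome genes likewise, with 32 of 44 below 0 and a median of -0.26. The translation factor genes higher in the cytoplasm were Eif2b2 with 11.8 and 30.2 FPKM and Eif3h with 21.9 and 54.1 FPKM. The 1 higher in the nucleus was Eif2ak2, the double-stranded RNA sensor kinase, with 8.94 and 0.702 FPKM. Other interferon-stimulated and RNA sensor genes on the nuclear side were Zbp1, listed at 0 in the cytoplasm against 13.3 FPKM in the nucleus, Isg15 with 4.40 and 0 FPKM, Oas2 and Mx1. Eif2ak2, Zbp1 and Isg15 passed the filter through the nucleus alone. In all, 5 of 20 kept (25%) were higher in the nucleus, beside 13.9% of all genes, and 1 in the cytoplasm. The median of the 20 was -0.20, and 12 lay below 0. The abundant oocyte members Oas1c, Oas1d and Oas1e were among those below 0, Oas1d with 372 and 631 FPKM. Of 56 nucleoporin and transport receptor genes 41 lay below 0, with a median of -0.28, while 3 were higher in the nucleus and 0 in the cytoplasm, the largest being Tnpo3, the import receptor of SR proteins, with 9.18 and 1.999 FPKM.

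The level of a gene went with how often it was 2-fold apart. Among protein-coding genes with a mean FPKM under 2, 28.7% were nuclear and 9.34% cytoplasmic by the 2-fold rule, and at 20 to 50 FPKM the shares were 1.52% and 1.86%. At 10 FPKM or more, 136 of 5972 protein-coding genes were higher in the nucleus and 132 in the cytoplasm, so the excess on the nuclear side lay below that level. The median log2 difference went down from 0.48 under 2 FPKM to -0.25 at 100 FPKM or more. A gene kept with a mean below 1 FPKM passed the filter through 1 column alone, so part of the high shares at low level is built into the filter. Low FPKM also carries the larger counting error, and the part of that error in these shares was not tested. Short transcripts were 2-fold apart more often: in the shortest of 5 equal classes of coding transcripts, up to 1923 nt, 15.2% were higher in the nucleus and 10.8% in the cytoplasm, against 8.78% and 1.98% in the longest class, from 5224 nt. At a mean of 10 FPKM or more the cytoplasmic share still went from 4.94% in the shortest class to 0.753% in the longest, while the nuclear share was 2.76% and 2.26%. By GC content of the transcript, the cytoplasmic share at that level was 1.09% in the lowest of 5 classes and 3.35% in the highest. Single-exon coding genes without histones were higher in the nucleus in 15.7% of 593 and higher in the cytoplasm in 5.40%. The shares were 10.99% and 4.86% among the 11208 coding genes with several exons.

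**Figure D4:**
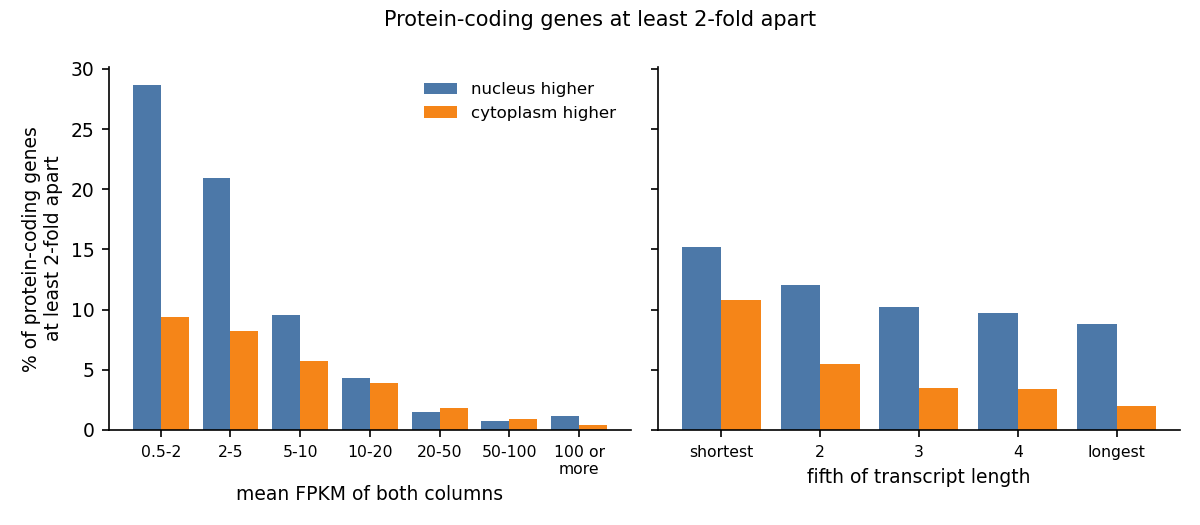
Bars give the percentage of protein-coding genes at least 2-fold higher in the WT nucleus (blue) or the WT cytoplasm (orange), by mean FPKM of both columns (left) and by transcript length, in 5 equal classes (right). The nuclear share is 28.7% under 2 FPKM and 1.52% at 20 to 50 FPKM, and the cytoplasmic share is 10.8% in the shortest class and 1.98% in the longest class.

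The same comparison in oocytes labelled Mtr4-null comes from libraries of its own and is set beside the WT values. Skiv2l2, the gene of MTR4, had 16.2 FPKM in WT nuclei and 21.6 FPKM in WT cytoplasms, and 2.91 and 2.51 FPKM in the null columns. In the null, 18.7% of 12998 genes were higher in the nucleus and 2.02% in the cytoplasm. Over the 11531 genes kept in both genotypes the median log2 difference was -0.10 in WT and 0.57 in the null, so the middle of the null distribution lay higher. This did not hold for every class: over the WT genes kept, the median went from 0.85 in WT to 0.45 in the null for long noncoding genes and from 0.48 to 0.21 for protein-coding genes with a mean of 0.5 to 2 FPKM in WT, classes whose members often entered through the WT nucleus. Of 1176 genes higher in the WT nucleus, 328 (27.9%) were also higher in the null nucleus, which is 16.7% of the 1964 called there. Of 581 genes higher in the WT cytoplasm, 23 (3.96%) were higher in the null cytoplasm, 17.8% of the 129 called there, and 141 were higher in the null nucleus. For the share over all features, 1964 of the 11531 genes were higher in the null nucleus and 129 of the 11531 in the null cytoplasm. Relative to the null median, 50.4% of the genes higher in the WT nucleus lay above it. Pearson's r of the differences across these genes was 0.14; genes of 1 column share its libraries and depth.

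The classes at the ends differed in how they appeared in the null. The 46 snoRNAs kept had a median of 281 FPKM in WT nuclei and 0 in WT cytoplasms, and of 119 and 41.9 FPKM in the null nucleus and cytoplasm. In the null 26 of them were higher in the nucleus, 6 in the cytoplasm, and 14 were listed at 0 in the cytoplasm, against 34 in WT. These genes were chosen by their WT values, and 36 of the 46 were below 1 FPKM in the WT cytoplasm and so entered through the WT nucleus alone; a wider split in WT is built into that choice. Snora47 had 11096 FPKM in the null nucleus and 2688 FPKM in the null cytoplasm, and Rmrp was near equal there with 11013 and 11312 FPKM. Of the 31 genes at least 16-fold higher in the WT nucleus that are not small RNAs and were kept in both, 23 were at least 2-fold higher in the null nucleus and 0 in the null cytoplasm. Zfp488, for one, had 70.7 FPKM in the null nucleus and 15.7 FPKM in the null cytoplasm. Core histones had a median difference of -0.71 in WT and 0.60 in the null, close to the null median of all genes, with 11 of 43 higher in the null nucleus and 1 in the null cytoplasm; Hist1h2bj had 248 and 243 FPKM there.

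The cell labels were checked on marker genes. The 15 oocyte markers were kept, 0 of them 2-fold apart, and their summed FPKM was 9395 in the nucleus and 11430 in the cytoplasm. Of 24 granulosa and cumulus markers 16 were kept, with sums of 150 FPKM in the nucleus and 141 FPKM in the cytoplasm. Among these, Amh was at 0 and 2.36 FPKM and Foxl2 at 0.751 and 1.81 FPKM, while Serpine2, the highest, was at 72.8 and 89.2 FPKM, Inha at 21.4 and 15.1 FPKM and Inhbb at 7.90 and 3.86 FPKM; Cyp11a1 was the farthest apart with 21.3 and 3.92 FPKM. Of 19 blood, immune and stromal markers 2 were kept, Pecam1 with 18.9 and 20.4 FPKM and Kdr with 2.28 and 1.75 FPKM. Small RNA genes held 57.7% of the summed FPKM of the nucleus and 4.09% of that of the cytoplasm; without them the columns summed to 361356 and 399676.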

How the data were processed

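Total RNA of pooled WT oocyte nuclei and cytoplasms, with ribosomal RNA depleted, was read as paired ends of 150 bp after selection of cDNA of 300 to 400 bp, per the labels' protocols. The authors deposited 1 table of FPKM with a single column for each group. The submitters' processing notes name build mm9 and the tools Cufflinks 2.2.1 and TopHat2 2.1.1. Among nonzero values, 58.9% of the nuclear and 55.9% of the cytoplasmic column end in a run of 3s, or of 6s closed by a 7, as a mean of 3 values does, so the columns look like means; how many libraries stand behind each is not stated. The labels do not say whether libraries came from separate animals.

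The unnamed last row, a sum, was dropped. Genes at 1 FPKM or more in either WT column were kept, and log2 differences with a pseudocount of 1 were computed with Python 3 libraries (pandas 2.3.3, numpy 2.4.6). Genes at least 2-fold apart were counted; this counting was tested on simulated data. Types, lengths and positions come from GENCODE M21 (GRCm38), matched by symbol for 98.5% of genes kept.

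The genes and the 58 lists were chosen with earlier results of these data known. Genes were named by rule: the 12 largest differences in each direction at 5 FPKM or more, the 5 largest in each of the small RNA, predicted, RIKEN and pseudogene classes, the 10 highest of each column, and up to 4 members per list by difference and by level. Hosts, receptor neighbours and the other genes named were chosen after their values were seen. Some of the genes so picked are not reported here. Other scalings, pseudocounts and filters were tried.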

Additional observations from a re-analysis of the deposited data

How the results depend on the processing

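With 1 value per group, leaving out libraries was not run, and no paired analysis was possible because the columns carry no replicates. Against 1775 genes higher in the nucleus and 672 in the cytoplasm, quantile normalization gave 1064 and 1125, a minimum of 5 FPKM in either column 753 and 358, and a minimum of 1 FPKM in both 551 and 360; a pseudocount of 0.1 gave 1056 in the cytoplasm. The minimum in both columns removes genes near 0 on one side by construction; the cause of the other shifts was not tested. The median log2 difference over genes kept, -0.06, became 0.0589 when centred on genes at 1 FPKM or more in both, and 0.0759 when rescaled to equal sums without small RNA genes. The other 18 of 27 values stayed within 1.5 times of the count, or within 0.1 of the median. Among these, the counts with genes above 0 in either column, 1775 and 672, could not change, because a 2-fold call needs at least 1 FPKM. Of 159 genes named by the rule that were 2-fold apart, 12 were under 2-fold in at least 1 of 9 alternatives, among them Rpsa and Prkaca. None changed direction, which the other scalings could have shown but the pseudocounts and filters could not. The unknown depth limits every low value, and the short RNAs are below the selected fragment size.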

Other observations

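Genes higher in the nucleus lay side by side more often than the overall share. In GRCm38 order, the next kept gene within 100 kb of a gene higher in the nucleus was itself higher in 227 of 1220 pairs (18.6%), against 13.1% of all 9643 pairs. Overlapping genes were counted among these pairs. There were 11 runs of at least 4 kept genes, next to each other in order on a chromosome at any distance, that were all higher in the nucleus. These runs, like the genes in them, were chosen after their values were seen. The longest held 9 olfactory receptor genes of chromosome 19, from Olfr1423 to Olfr1437. All 9 were listed at 0 in the WT cytoplasm, and their nuclear values ran from 1.31 FPKM for Olfr1437 to 17.4 FPKM for Olfr1423. Each of the 9 thus passed the filter through the WT nucleus alone, which fixed its call, and genes below the filter were skipped in the order. The same holds for members of other runs listed at 0 in the cytoplasm. None of the 9 reached 1 FPKM in the Mtr4-null nucleus, where Olfr1423 had 0.693 FPKM. These genes were chosen by their WT values, so a higher level in WT is partly built into that choice.

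A run on chromosome 7 held Usp-ps, Dub1 and 5 olfactory receptor genes, among them Olfr691 with 5.67 FPKM in the nucleus and listed at 0 in the cytoplasm. On chromosome 6 the bitter taste receptors Tas2r137 and Tas2r108, the protease gene Prss37 and Olfr461 formed a run. Prss37 had 9.03 FPKM in the nucleus and 3.803 FPKM in the cytoplasm. On chromosome 11 a run held 3 Schlafen genes, of which Slfn5 had 3.65 FPKM in WT nuclei and 0.0276 FPKM in WT cytoplasms. Outside these runs, 3 collagen VI genes of chromosome 9 were all on the nuclear side: Col6a4 with 61.5 and 4.65 FPKM, Col6a5 with 75.7 and 4.87 FPKM, and Col6a6 with 244.9 and 33.0 FPKM. Whether reads in such runs, or in the collagen VI genes, come from 1 long transcript, from near copies or from separate genes was not tested.

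By chromosome, the share of kept genes higher in the nucleus ran from 9.86% on chromosome 15 to 15.8% on chromosome 6 among autosomes, and was 20.4% of 437 genes on the X chromosome, whose median nuclear FPKM of 6.43 was below that of every autosome.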
